A study of Mus musculus with 55 samples.

Results

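The flexor digitorum brevis (FDB), a small muscle of the foot, was compared between 5 and 2 months of age in mdx mice. The members are the 10 libraries that the deposited sample sheet lists as FDB of mdx mice, 7 at 5 months and 3 at 2 months, of 55 libraries in the series, and all 24453 genes of the expression table were considered. The mdx mouse is the usual model of Duchenne muscular dystrophy and carries a mutation in Dmd, the gene of dystrophin, in all of its cells. FDB of wild-type (wt) mice, with 4 libraries at 5 months and 4 at 2 months, served for the test of genotype by age. The series asked how mdx pathology develops with time in muscles of different kinds. The labels used here give genotype, muscle and age, and they leave it unsaid whether each library came from its own animal. The p-values therefore reflect library-to-library spread, some of which may be technical.

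Dystrophin links the cytoskeleton of a muscle fibre to a complex of proteins in its membrane and through them to the surrounding matrix. Fibres that lack it are damaged by contraction, and in mdx muscle cycles of fibre death and regeneration begin in the first weeks of life, draw in macrophages and go on at a lower rate in the adult. Between 2 and 5 months a mouse passes from late growth to adulthood, when collagen production falls and the contractile apparatus matures also in healthy muscle. FDB is used for experiments on isolated single fibres and holds mainly fast fibres.

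Expression is given in RPKM, reads per kilobase of transcript and M (mega) mapped reads. Depth, recovered from the steps between low values, was 45.9 to 59.4 M reads in the 10 mdx FDB libraries, and it did not differ detectably between 5 and 2 months (exact permutation test over 7 and 3 libraries, two-sided, p = 0.85, the smallest possible being 0.0167). Library IDs fall into blocks. The 3 mdx libraries at 2 months, the 8 wt FDB libraries and the 5-month mdx libraries ns05, ns06 and ns08 belong to the first block, and the 4 others at 5 months, ns54 to ns57, to the third. The sources give no date or sequencing run for a block. Pearson's r across genes was 0.9904 to 0.9973 within the third block and 0.9906 to 0.9942 within the first block at 5 months, 0.9937 to 0.9976 at 2 months, and 0.9773 to 0.9873 between the third and the first block at the same age. With the 2-month libraries r was 0.9858 to 0.9901 for the third block and 0.9838 to 0.9897 for the first at 5 months. The blocks at 5 months were thus less like each other than like themselves, and both were about as close to the 2-month libraries. For the third block against 2 months, age and block cannot be told apart, so the first block alone, in which both ages occur, is given beside the pooled result. Both within-block comparisons share the 3 libraries at 2 months. Markers of skeletal muscle fibres dominated every library, and their summed level was 20944 to 28247 RPKM at 5 months and 23728 to 24309 RPKM at 2 months in mdx FDB. Library ns57 also held skin keratinocyte markers, with a summed level of 531 RPKM against at most 7.37 in the 6 others of its group.

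Of 12541 genes that averaged 0.5 RPKM or more, 738 (5.88%) differed between 5 and 2 months in mdx FDB at an adjusted p below 0.05 in a limma model of log2(RPKM + 1) with Benjamini-Hochberg adjustment over all genes tested. At 5 months 304 were higher (2.42%) and 434 lower (3.46%). Most changes were small, with 4 rises and 16 falls of at least 2-fold on the log2(RPKM + 1) scale, and the median over all genes was -0.02. In 567 of the 738 genes the 7 libraries at 5 months did not overlap the 3 at 2 months, 223 higher and 344 lower. Over all genes tested, 3.74% were higher and 6.91% lower without overlap. How the changes divided into rises and falls varied with the scaling, since 405 genes were higher and 266 lower after median-of-ratios scaling, and 494 were higher and 410 lower after quantile normalization. Without the 2-month library ns01, ns02 or ns04 the count was 304, 459 or 317. The first block against 2 months gave 2888 genes or 23.0% (736 higher, 5.87%, and 2152 lower, 17.2%), and the third block against 2 months gave 1571 (898 higher, 7.16%, and 673 lower, 5.37%). With the same 2 scalings the first block gave 1652 higher and 1173 lower, and 1500 higher and 1227 lower. Setting the blocks against each other at 5 months gave 3720 genes, 2844 (22.7%) higher and 876 (6.99%) lower in the third block, or 1544 higher and 1905 lower, and 1586 higher and 2026 lower, with these scalings. "Rose" and "fell" are used below of genes past the threshold, and of the pooled 7 libraries unless a block is named.

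Genes of the extracellular matrix led the falls. Of 30 genes for collagens, matrix proteins and the enzymes that process them, 16 fell and none rose, against 3.46% and 2.42% of all genes tested, and the median difference was -0.64 on the log2 scale against -0.02 over all genes. The first block gave 16 falls with a median of -0.64, and the third gave 14 with a median of -0.58. In 20 of the 30 genes every library at 5 months lay below every library at 2 months. Between the third and the first block at 5 months none of the 30 genes passed the limma threshold, and none had an unadjusted p below 0.05, while 29.7% of all genes tested passed. The count of 16 falls became 8 without the 2-month library ns01 and 10 without ns04.

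Col1a1 (chromosome 11, 94936224 to 94953042, mm10), which encodes the first chain of fibrillar collagen I, had a lowest, median and highest value of 118, 158 and 181 RPKM at 5 months, against 364, 399 and 519 RPKM at 2 months. Every 5-month library was below every 2-month library, and the difference was -1.45 ± 0.28 (SE) on the log2 scale (adjusted p = 0.000783). Within the first block the difference was -1.62 and for the third block -1.32. Col3a1, the gene of collagen III, had 220.3, 268 and 350.4 RPKM at 5 months, against 570.5, 595 and 850.2 RPKM at 2 months. The groups again did not overlap, with a difference of -1.25 ± 0.24 (adjusted p = 0.000737). Col1a2, the second chain of collagen I, had 224, 259 and 279 RPKM at 5 months, against 506, 556 and 682 RPKM at 2 months (difference -1.19 ± 0.24, adjusted p = 0.000914). Sparc, a secreted glycoprotein that binds collagen, had 279, 311 and 337 RPKM at 5 months, against 631, 665 and 876 RPKM at 2 months. It had the smallest p among these genes, with a difference of -1.18 ± 0.14 (adjusted p = 5.27e-08), and the values of the blocks were -1.23 for the first and -1.15 for the third. Collagen IV of the basement membrane fell less. Col4a1 had 26, 28.3 and 33 RPKM at 5 months, against 45.5, 47.5 and 57.2 RPKM at 2 months (difference -0.79 ± 0.12, adjusted p = 1.53e-05). Its partner Col4a2 had 29.8, 32.2 and 38.2 RPKM at 5 months, against 48.5, 50.5 and 59.3 RPKM at 2 months (difference -0.65 ± 0.11, adjusted p = 0.000115).

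Among the enzymes, Loxl2, which crosslinks collagen, differed by -0.90 (adjusted p = 0.000168), and Mmp14, a membrane-bound protease that cleaves matrix proteins, by -0.63 (adjusted p = 0.0196, up to 0.198 without ns01 or ns04). Not all matrix genes moved. Fn1, the gene of fibronectin, had 70.2, 93.2 and 117 RPKM at 5 months, against 87.9, 91 and 98.5 RPKM at 2 months, and the groups overlapped (difference 0.03 ± 0.26, adjusted p = 0.976). Bgn, the gene of the small proteoglycan biglycan, had 132, 139.9 and 162 RPKM at 5 months, against 134, 140.0 and 156 RPKM at 2 months, with no detectable difference (adjusted p = 1). Of 13 tendon and cartilage matrix genes 3 fell, against 3.46% of all genes tested. The largest fall was that of Kera, a proteoglycan of tendon and cornea, with 1.26, 1.88 and 3.33 RPKM at 5 months, against 5.8, 7.24 and 9.51 RPKM at 2 months (difference -1.43 ± 0.29, adjusted p = 0.00115). Of 13 markers of fibroadipogenic progenitors, the cells that make most of the matrix in muscle, none passed the limma threshold in the pooled comparison (2 lower at an unadjusted p below 0.05). In the first block 2 fell and in the third 1 fell, near the shares of all genes tested, 17.2% and 5.37%. In bulk tissue, fewer cells of a type and less RNA per cell cannot be told apart.

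**Figure D1:**
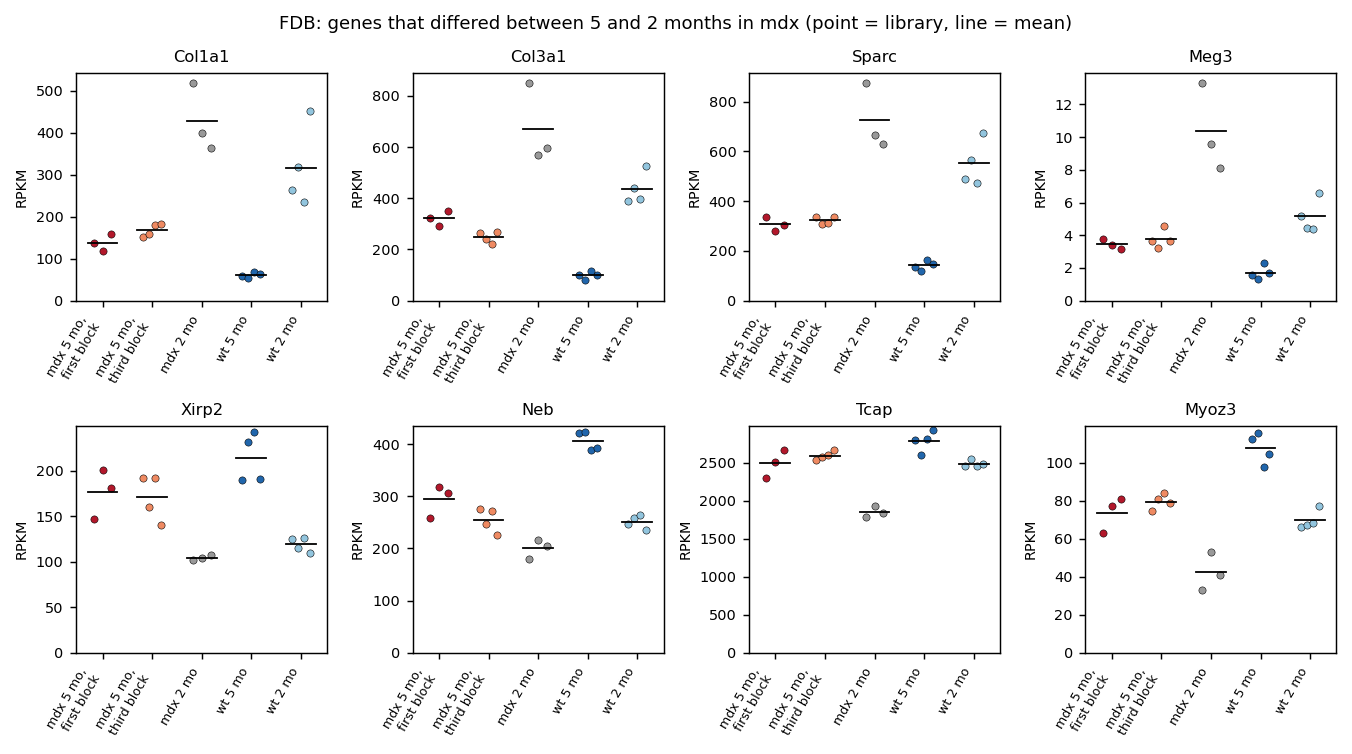
Level in RPKM on linear axes of 8 genes in FDB, 1 point per library and a line at the mean, for mdx at 5 months (the first and the third ID block), mdx at 2 months, wt at 5 months and wt at 2 months. Col1a1, Col3a1, Sparc and Meg3 lie lower at 5 months in both blocks, and Xirp2, Neb, Tcap and Myoz3 lie higher, with no overlap between the 7 and the 3 mdx libraries.

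The promoters of a few genes that moved alike in both blocks are shown so that the start regions of a collagen I chain, a collagen IV chain, the long RNA Meg3 and the muscle gene Xirp2 can be compared. The windows are from RefSeq on GRCm38.p6, run from 250 bases before the annotated start to 50 after it on the strand of transcription, and were found for 61 of the 104 genes that the naming rule takes. Capitals mark CCAAT, the core of the CCAAT box, or its reverse complement ATTGG, and in Xirp2 a match to the MEF2 motif, searched by name on both strands. No match overlaps another. CCAAT in either direction occurs in 37.4% of 32544 such windows and the MEF2 motif in 1.86%. Only windows with a marked match are shown, so they do not give the share of the 61 genes that hold one. A match is a description of the letters and shows no binding.
Col1a2 (chr6:4505368-4505667, + strand): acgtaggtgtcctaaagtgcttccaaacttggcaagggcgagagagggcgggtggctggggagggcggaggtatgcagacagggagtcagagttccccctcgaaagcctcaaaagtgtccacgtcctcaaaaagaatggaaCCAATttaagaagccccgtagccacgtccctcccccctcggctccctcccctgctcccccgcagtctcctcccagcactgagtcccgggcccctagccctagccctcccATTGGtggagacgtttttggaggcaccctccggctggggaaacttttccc
Col4a2 (chr8:11312555-11312854, + strand): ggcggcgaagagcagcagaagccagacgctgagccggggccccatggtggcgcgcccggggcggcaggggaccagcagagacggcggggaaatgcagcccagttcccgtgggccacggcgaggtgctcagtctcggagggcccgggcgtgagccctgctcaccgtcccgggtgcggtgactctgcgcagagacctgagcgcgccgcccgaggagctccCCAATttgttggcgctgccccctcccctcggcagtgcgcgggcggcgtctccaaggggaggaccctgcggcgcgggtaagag
Meg3 (chr12:109540746-109541045, + strand): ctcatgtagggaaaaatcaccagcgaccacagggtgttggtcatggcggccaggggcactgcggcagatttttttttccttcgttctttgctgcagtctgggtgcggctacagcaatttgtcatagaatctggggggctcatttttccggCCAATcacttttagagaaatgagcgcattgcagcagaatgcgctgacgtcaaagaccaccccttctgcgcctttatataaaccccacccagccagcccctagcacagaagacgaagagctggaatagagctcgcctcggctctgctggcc
Xirp2 (chr2:67445752-67446051, + strand): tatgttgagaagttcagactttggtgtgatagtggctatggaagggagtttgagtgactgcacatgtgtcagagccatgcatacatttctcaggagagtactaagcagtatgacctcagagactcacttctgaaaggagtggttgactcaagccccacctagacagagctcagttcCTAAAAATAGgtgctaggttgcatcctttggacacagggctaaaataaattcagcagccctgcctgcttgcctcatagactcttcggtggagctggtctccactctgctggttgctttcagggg
A CCAAT match lies 109 bases before the annotated start in Col1a2, 32 before it in Col4a2 and 100 before it in Meg3. Col1a2 has a second match at the annotated start itself, and the MEF2 match of Xirp2 begins 74 bases before the start. Col4a2 and Col4a1 are read in opposite directions from starts only 21 bases apart, and their windows share 78 bases.

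Imprinted and juvenile growth genes, which are active in the growing animal and are turned down after weaning, made up a second group that fell. Of 15 tested, 6 fell and none rose, against 3.46% and 2.42% of all genes tested, and the median was -0.46. With any of the 2-month libraries left out, 3 of the 15 fell. The long non-coding RNAs of the imprinted Dlk1-Dio3 locus on chromosome 12 led the group. Meg3 (109541001 to 109571726, mm10) had 3.13, 3.62 and 4.55 RPKM at 5 months, against 8.13, 9.61 and 13.3 RPKM at 2 months. Every 5-month library was lower, and the difference was -1.28 ± 0.17 (adjusted p = 1.88e-06), with -1.33 for the first block and -1.24 for the third. Rian, transcribed from the same locus, had 4.98, 5.96 and 7.76 RPKM at 5 months, against 13.2, 16.9 and 23.9 RPKM at 2 months (difference -1.38 ± 0.21, adjusted p = 1.03e-05). Mirg, the next RNA of the locus, had 0.528, 0.72 and 1.12 RPKM at 5 months, against 1.76, 1.92 and 3.55 RPKM at 2 months (difference -0.89 ± 0.13, adjusted p = 4.26e-06). Of imprinted genes elsewhere, Grb10, which restrains insulin signalling, differed by -0.65 (adjusted p = 0.0345) and Cdkn1c, an inhibitor of cell division, by -0.60 (adjusted p = 0.0399). Igf1r, the receptor of insulin-like growth factors, differed by -0.35 (adjusted p = 0.0251). These 3 calls were lost in turn without ns01, ns02 or ns04, among others, with adjusted p up to 0.164 for Grb10, 0.254 for Cdkn1c and 0.185 for Igf1r. Within the first block Grb10 (-0.37, adjusted p = 0.127) and Cdkn1c (-0.52, adjusted p = 0.0636) did not pass, and in the third Igf1r did not (-0.21, adjusted p = 0.0642).

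Igf2 and H19, neighbours on chromosome 7 that are imprinted in opposite directions, did not pass the threshold with the pooled libraries and differed by block. H19 had 70.2, 103, 107 and 122 RPKM in the third block and 214, 228 and 281 RPKM in the first block at 5 months, against 173, 245 and 288 RPKM at 2 months. Only the values of the third block lay below the others, and H19 fell there (-1.22 ± 0.24, adjusted p = 0.000405), whereas the first block gave 0.05 ± 0.26 (adjusted p = 0.904). Igf2, a fetal growth factor, fell in the third block (-1.19 ± 0.30, adjusted p = 0.00598) and gave -0.47 ± 0.32 in the first (adjusted p = 0.315).

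Several further genes are among the 12 largest falls without overlap. Cpz, a carboxypeptidase of the matrix, had 0.612, 0.801 and 1.47 RPKM at 5 months, against 2.69, 3.05 and 5.45 RPKM at 2 months (difference -1.22 ± 0.12, adjusted p = 3.68e-09). Mfap4, a protein of elastic fibres, had 2.42, 5.16 and 6.01 RPKM at 5 months, against a median of 10.5 and a highest value of 12 RPKM at 2 months (difference -1.12, adjusted p = 0.00478, or 0.0518 without ns01). C1qtnf6, a secreted protein with a collagen-like stretch, had 5.24, 6.58 and 8.98 RPKM at 5 months, against 13.5, 14.2 and 18.4 RPKM at 2 months (difference -1.07, adjusted p = 1.11e-05). Cpz, Mfap4 and C1qtnf6 thus each lay lower in all 7 libraries at 5 months. Ap1s3, a subunit of a vesicle adaptor complex, had 0.792, 0.911, 0.924 and 1.12 RPKM in the third block and 3.12, 3.54 and 4.16 RPKM in the first block at 5 months, against 5.93, 6.19 and 6.55 RPKM at 2 months. Its pooled difference of -1.37 joins -1.90 in the third block and -0.65 in the first. Erdr1, whose role in muscle is unclear, was at 0 to 0.309 RPKM at 5 months, against 1.07, 8.76 and 17.9 RPKM at 2 months, and the 2-month libraries themselves spread widely (difference -2.75 ± 0.64, adjusted p = 0.00452). Without the 2-month library ns04 its adjusted p was 0.123.

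The genes that rose changed less, and sarcomere and cytoskeleton genes stood among the leading ones. Myoz3, a protein of the Z-disc that binds calcineurin, had 62.9, 78.8 and 84.1 RPKM at 5 months, against 33.3, 41 and 53 RPKM at 2 months. All 7 libraries were higher, with a difference of 0.87 ± 0.10 (adjusted p = 1.42e-07) and values of 0.80 for the first block and 0.92 for the third. Xirp2 (chromosome 2, 67446002 to 67526614, mm10), an actin-binding protein of muscle cells, had 140.5, 181 and 201 RPKM at 5 months, against 102, 104 and 107 RPKM at 2 months (difference 0.71 ± 0.11, adjusted p = 3.62e-05). Uaca, an ankyrin-repeat protein, had 152, 187 and 196 RPKM at 5 months, against 116, 123 and 127 RPKM at 2 months (difference 0.57 ± 0.09, adjusted p = 1.22e-05). Nrap, which organises actin filaments as sarcomeres form, had 433, 601 and 616 RPKM at 5 months, against 366, 397 and 422 RPKM at 2 months (difference 0.51 ± 0.11, adjusted p = 0.00345). Of the 8 tested stretch-responsive and costamere genes, 2 rose with the pooled libraries, against 2.42% of all genes tested. In each block 3 rose, against 5.87% of all genes in the first and 7.16% in the third. In wt FDB 5 of the 8 rose, against 6.33% of all genes.

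A few structural genes of the sarcomere also rose, by small amounts. Of 10 markers of skeletal muscle fibres 3 rose and none fell, against 2.42% and 3.46% of all genes tested, with a median of 0.06 over the list. Only 1 of the 10 passed without the 2-month library ns01 or without ns04. Neb, the gene of the thin-filament ruler nebulin, had 226, 272 and 318 RPKM at 5 months, against 179.9, 205 and 216 RPKM at 2 months (difference 0.44 ± 0.09, adjusted p = 0.00139). Tcap, which caps titin at the Z-disc, had 2304, 2573 and 2672 RPKM at 5 months, against 1780.1, 1834 and 1931 RPKM at 2 months (difference 0.46 ± 0.12, adjusted p = 0.017, up to 0.107 without ns01 or ns04 and 0.677 with quantile normalization). Myot, the gene of the Z-disc protein myotilin, had 357, 409 and 539.6 RPKM at 5 months, against 348, 349 and 355 RPKM at 2 months, with a difference of only 0.25 (adjusted p = 0.0398, lost without any 1 of ns01, ns02, ns04, ns06 or ns08). In the third block 2 of the 10 rose and 2 fell, while in the first block 5 rose and none fell. Over all genes tested 7.16% rose and 5.37% fell in the third block, and 5.87% rose and 17.2% fell in the first. Neb and Tcap rose in each block, and Myot rose in the first (0.38) but not detectably in the third (0.15, adjusted p = 0.203). The same marker list split by block: 8 of its 10 genes were lower in the third block than in the first at 5 months, against 6.99% of all genes tested. Its summed level was 20944 to 21545 RPKM in the third and 24989 to 28247 in the first. With quantile normalization 1 of the 10 was lower.

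The other leading rises were of genes with different known roles. Rpph1, the RNA component of ribonuclease P, had 2.21, 3.64 and 5.96 RPKM at 5 months, against 0.557, 0.577 and 0.769 RPKM at 2 months, and its difference of 1.54 ± 0.31 was the largest rise named (adjusted p = 0.000916). Libraries were selected for polyadenylated RNA, which Rpph1 mostly lacks, so its level depends on that step. Vsig4, a complement receptor of resident macrophages, had 3.78, 4.51 and 5.53 RPKM at 5 months, against 2.43, 2.58 and 3.29 RPKM at 2 months (difference 0.58 ± 0.11, adjusted p = 0.00049, or 0.184 with a pseudocount of 0.1 RPKM). Agrp, known as a neuropeptide, had 8.84, 11.8 and 17 RPKM at 5 months, against 5.49, 6.46 and 6.54 RPKM at 2 months (difference 0.85 ± 0.14, adjusted p = 6.72e-05). Since the counting rule for overlapping genes is not given, the source of the Agrp reads is uncertain. Clca4a, of a family of chloride channel regulators, had 0.882, 1.19 and 1.54 RPKM at 5 months, against 0.156, 0.284 and 0.374 RPKM at 2 months (difference 0.76 ± 0.08, adjusted p = 5.83e-09). Apol6, Prob1, Ppip5k1 and Hspa1l rose by 0.66, 0.56, 0.56 and 0.56 without overlap.

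Genes of protein breakdown moved in both directions. Of 15 tested genes of atrophy, myostatin and FoxO signalling, 2 rose and 2 fell, against 2.42% and 3.46% of all genes tested. However, none of the 4 passed without the 2-month library ns02 or without ns04, and 1 passed without ns01. The highest adjusted p with a library left out was 0.15 for Foxo1, 0.147 for Trim63, 0.105 for Eda2r and 0.194 for Bnip3. Trim63 did not pass within the first block (-0.43, adjusted p = 0.0533), and Foxo1, Eda2r and Bnip3 did not in the third. Trim63, the ubiquitin ligase MuRF1 that marks contractile proteins for degradation, had 48.9, 51.3 and 62.8 RPKM at 5 months, against 70.0, 74.8 and 77.4 RPKM at 2 months (difference -0.47 ± 0.14, adjusted p = 0.028). Foxo1, a transcription factor that induces atrophy genes, had 5.42, 6.63 and 7.56 RPKM at 5 months, against 9.94, 10.4 and 10.6 RPKM at 2 months (difference -0.60 ± 0.18, adjusted p = 0.0372). Both lay lower in all 7 libraries. The 2 that rose were Eda2r, the ectodysplasin A2 receptor (0.56, adjusted p = 0.0173), and Bnip3, a mitophagy receptor (0.25, adjusted p = 0.0425). The proteasome subunits Psmd2 and Psmc3 rose by 0.18 each. Mylk2, the kinase of the fast myosin regulatory light chain, was the only one of 14 fast-fibre genes past the threshold (-0.44, adjusted p = 0.00388).

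Few metabolic genes passed the threshold with the pooled libraries, but only 2.42% of all genes tested rose and 3.46% fell. The counts below therefore do not set metabolic genes apart from other genes. Gpd1, of the glycerol phosphate shuttle, fell (-0.51, adjusted p = 0.0425), and Gbe1, the glycogen branching enzyme, rose (0.23, adjusted p = 0.0158), among 21 genes of glycolysis and glycogen, and neither passed without ns01, ns02 or ns04 (adjusted p up to 0.217 and 0.0828). Hadh, an enzyme of fatty acid oxidation, had 54.5, 60.2 and 68.1 RPKM at 5 months, against 48.2, 50.5 and 51.3 RPKM at 2 months, and was the only one of 26 genes of fatty acid use past the threshold (0.28, adjusted p = 0.0143, or 0.109 without ns04). Ndufs5, a subunit of complex I, had 29.4, 35.5 and 42.8 RPKM at 5 months, against 46.1, 52.2 and 53.4 RPKM at 2 months (difference -0.47 ± 0.11, adjusted p = 0.00747, up to 0.0627 without ns02 or ns04), as 1 of 78 nuclear genes of the respiratory chain.

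Dmd showed no detectable change with age. It had 3.21, 3.51 and 3.64 RPKM at 5 months and 3.45, 3.76 and 3.91 RPKM at 2 months in mdx FDB (difference -0.08 ± 0.07, adjusted p = 0.645), and all 10 libraries were below the 10.9 to 12.1 RPKM of the wt libraries. Utrn, the gene of utrophin, a relative of dystrophin that can stand in for it at the membrane, differed by block. It had 8.95, 9.55, 9.61 and 10.6 RPKM in the third block and 5.79, 5.89 and 6.11 RPKM in the first block at 5 months, against 8.3, 8.3 and 8.31 RPKM at 2 months. The 2-month values lay between the blocks, so that Utrn fell in the first block (-0.42 ± 0.07, adjusted p = 6.28e-06), rose in the third (0.20 ± 0.06, adjusted p = 0.0303) and showed no pooled difference (-0.07, adjusted p = 0.832).

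Among the adult myosin heavy chain genes, which define fibre types, Myh4 of the fastest fibres differed most. It had 90.4, 111 and 165 RPKM at 5 months, against 379, 486 and 564 RPKM at 2 months. The groups lay far apart, yet the difference of -1.99 ± 0.73 missed the threshold in the model that shares its spread with the other muscles (adjusted p = 0.103). The first block alone passed (-2.08, adjusted p = 0.0437, up to 0.11 without any 1 of its 6 libraries), as did a model of the FDB libraries only (-1.99, adjusted p = 7.41e-06). Myh2 of the fast oxidative fibres had 1786, 2434 and 3059 RPKM at 5 months, against 1556, 1564 and 1612 RPKM at 2 months. No values overlapped, and the difference of 0.64 ± 0.24 had an adjusted p of 0.101, or 0.00222 with FDB libraries only. Myh7 of the slow fibres had 225, 276 and 384 RPKM at 5 months, against 191, 199 and 235 RPKM at 2 months, with overlap (0.46 ± 0.40, adjusted p = 0.605, or 0.0235 with FDB libraries only). Myh1, the most abundant of the 4, had 3032, 3435 and 4399.7 RPKM at 5 months, against 3255, 3409 and 3506 RPKM at 2 months, and showed no detectable difference (0.06, adjusted p = 0.935).

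**Figure D2:**
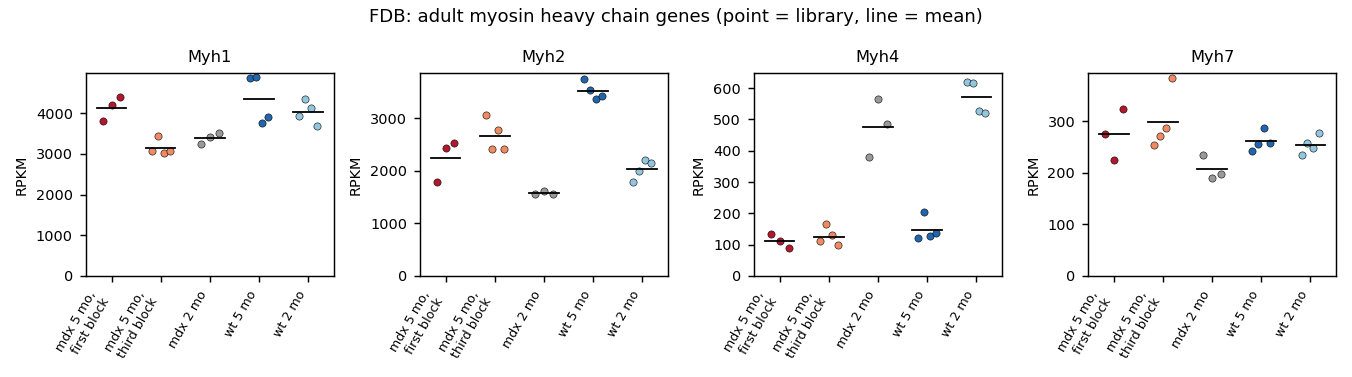
Level in RPKM on linear axes of the adult myosin heavy chain genes Myh1, Myh2, Myh4 and Myh7 in FDB, 1 point per library and a line at the mean, in the same groups. Myh4 is below 170 in all mdx libraries at 5 months and above 370 at 2 months, and Myh2 is higher at 5 months in both blocks.

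Markers of Schwann cells, vessels and blood differed between the third and the first block at 5 months. Over all genes tested 22.7% were higher and 6.99% lower in the third block than in the first, 17.2% fell in the first block and 7.16% rose in the third. No macrophage or neutrophil marker, of 26 and 5 tested, passed the limma threshold between the blocks (3 and 0 lower at an unadjusted p below 0.05). Of 15 Schwann cell and myelin markers, 14 fell in the first block and 14 were higher in the third block than in the first, while 4 rose in the third block against 2 months. With all 7 libraries only Ncmap and Fa2h, both genes of myelinating cells, fell, and neither passed without ns01 or ns04 (adjusted p up to 0.108 and 0.242). Mbp, the gene of myelin basic protein, had 27.4, 31.1, 39.6 and 41.4 RPKM in the third block and 8.5, 8.69 and 9.99 RPKM in the first block at 5 months, against 25.4, 31.2 and 33.7 RPKM at 2 months. Libraries of the third block overlapped the 2-month libraries, and those of the first were far below (-1.62 ± 0.16, adjusted p = 5.23e-10). The summed Schwann level was 343 to 465 RPKM in the third block and 134 to 154 RPKM in the first block, against 350 to 456 RPKM at 2 months, and in wt FDB it was 108 to 176 RPKM at 5 months and 321 to 437 RPKM at 2 months. The 4 wt libraries at 5 months, all of the first block, thus had levels like those of the first-block mdx libraries. Prnp, the gene of the prion protein, which neurons and Schwann cells express, showed the same order, with 149.7, 197, 203 and 206 RPKM in the third block and 37.6, 39.6 and 41.8 RPKM in the first block, against 169, 189 and 196 RPKM at 2 months.

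Vessel markers showed the same order. Of 12 endothelial markers 11 fell in the first block and all 12 were higher in the third block than in the first, while 3 rose in the third block against 2 months. Pecam1, an adhesion molecule of endothelial cells, had 29.4, 30.7, 32.8 and 32.9 RPKM in the third block and 15.1, 15.2 and 15.9 RPKM in the first block at 5 months, against 23.1, 24.2 and 27.2 RPKM at 2 months. Its 3 sets of values did not overlap, and the 2-month libraries lay in between. Of 10 smooth muscle and pericyte markers 9 fell in the first block and 5 rose in the third. Myh11, the myosin of smooth muscle, had 27, 28.6, 29.7 and 35 RPKM in the third block and 2.44, 3.49 and 4.11 RPKM in the first block at 5 months, against 8.12, 15 and 19.1 RPKM at 2 months, a fall in the first block (-1.74, adjusted p = 1.96e-07) and a rise in the third (1.11, adjusted p = 0.000241). Cnn1, the smooth muscle protein calponin, had 7.35, 7.9, 11 and 12.1 RPKM in the third block and 0.0834, 0.416 and 0.44 RPKM in the first block at 5 months, against 0.847, 4.66 and 5.7 RPKM at 2 months. It was among the 4 genes with the largest excess in the third block over the first. Of 13 adipocyte markers 10 fell in the first block and 1 rose in the third, and with median-of-ratios scaling and quantile normalization 4 and 5 fell in the first. All 5 mast cell markers and all 7 erythroid markers were higher in the third block than in the first. Whether nerve, vessel and blood left in the dissected muscle differed between the blocks was not tested.

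**Figure D3:**
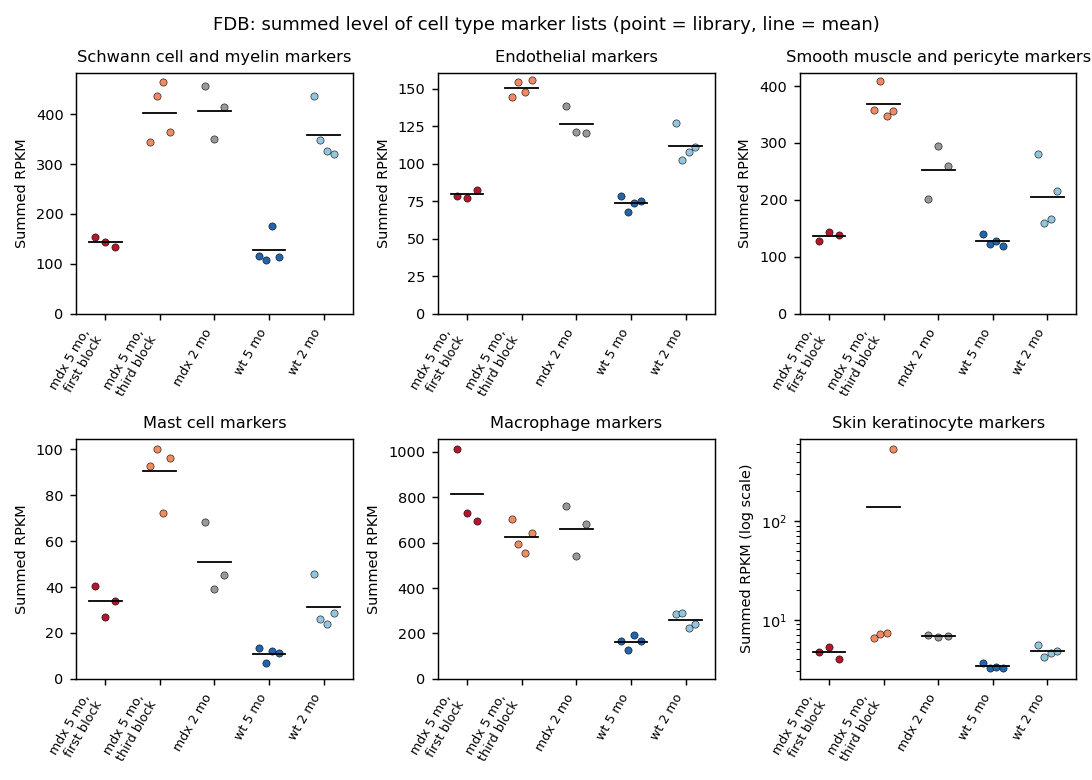
Summed RPKM of marker lists for 6 cell types in FDB, 1 point per library and a line at the mean, in the same groups, on linear axes except for the keratinocyte panel, which has a log axis. Schwann, endothelial, smooth muscle and mast cell sums are higher in the 4 mdx libraries of the third block than in the 3 of the first at 5 months, and library ns57 holds a keratinocyte sum of 531.

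Energy and protein turnover genes showed the opposite order. Of 78 nuclear genes of the respiratory chain and ATP synthase, 16 rose and 4 fell in the first block, none rose and 18 fell in the third, and 50 were lower and 1 higher in the third block than in the first. Over all genes tested 5.87% rose and 17.2% fell in the first block, and 7.16% rose and 5.37% fell in the third. The medians of the respiratory chain list were small, at 0.07 for the first block and -0.10 for the third. Of 77 mitochondrial ribosomal protein genes 19 rose in the first block, and 41 were lower in the third than in the first. Of 37 genes of the constitutive proteasome 23 rose in the first block and 25 were lower in the third than in the first, against 22.7% higher and 6.99% lower over all genes. As RPKM are shares, the share taken by the 10 highest genes is given beside this. It was 14.2% to 14.9% in the third block and 16.5% to 18.1% in the first block at 5 months, against 15.5% to 16.9% at 2 months. Its part in the result was not tested.

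Single genes also separated the blocks. Mrgpra6, a receptor of sensory neurons, had 79.6, 82.1, 83.3 and 88.2 RPKM in the third block and at most 0.0299 RPKM in the first block at 5 months, against 0.0685, 0.0727 and 0.0737 RPKM at 2 months. Mir6240, a short gene annotated as a microRNA, had 102, 122, 129 and 129 RPKM in the third block and 0, 0 and 0.157 RPKM in the first block, and it was listed at 0 in the 3 libraries at 2 months. In the other direction, Rpl37rt, a retrotransposed copy of a ribosomal protein gene, had 4.14, 4.43, 4.44 and 4.67 RPKM in the third block and 14.5, 17.2 and 18 RPKM in the first block, against 3.57, 3.66 and 3.69 RPKM at 2 months. Rpl34, of the large ribosomal subunit, had 36.7, 38.9, 39.5 and 42.5 RPKM in the third block and 10.7, 12.5 and 13.3 RPKM in the first block, against 39.4, 45 and 52.3 RPKM at 2 months. Rpl37rt and Rpl34 have near-identical copies in the genome, so their reads may be split between copies. The first-block values of Rpl34 were close to the 10.9 to 13.4 RPKM of wt FDB at 5 months, which belongs to the same block.

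**Figure D4:**
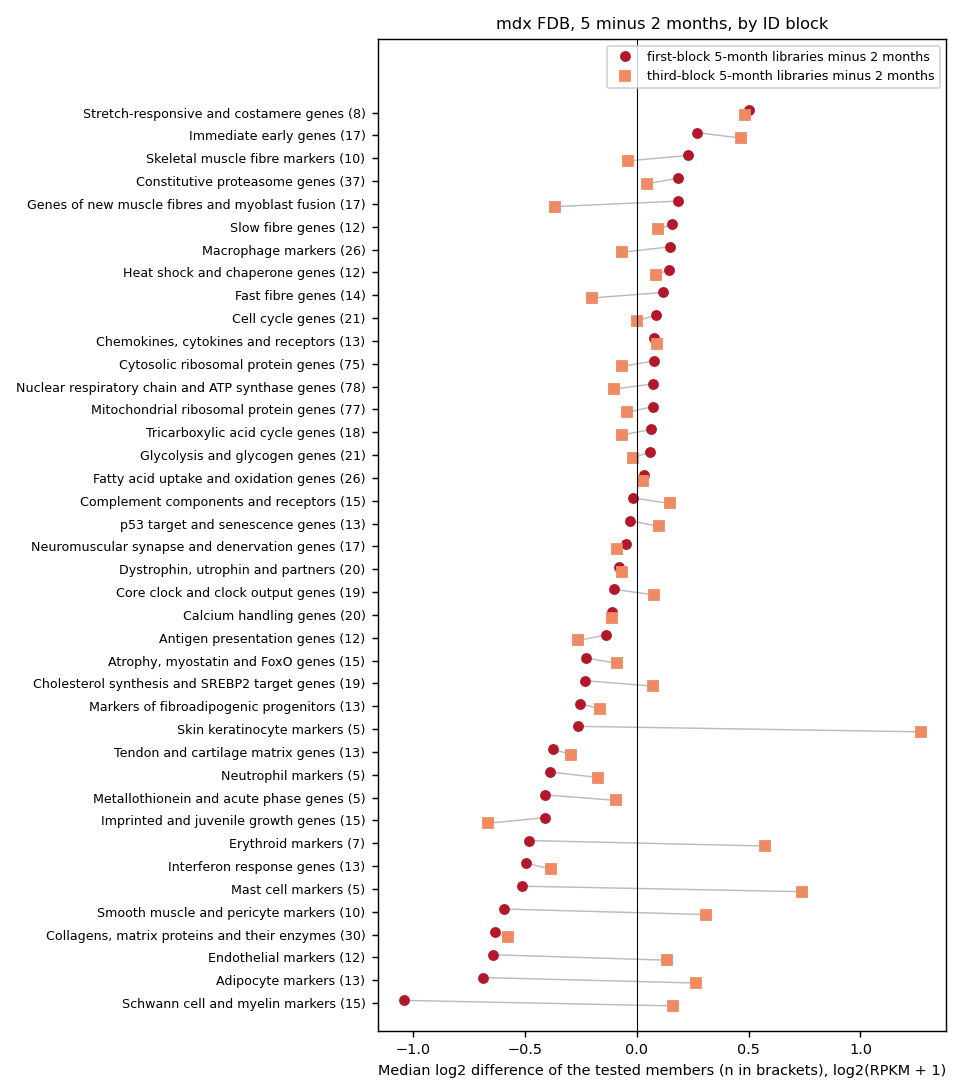
Median difference on the log2(RPKM + 1) scale of the tested members of each gene list with at least 5, for 5-month mdx libraries of the first (circles) and the third block (squares) minus the same 3 libraries at 2 months, ordered by the first-block value. Matrix genes lie at -0.64 and -0.58, while the Schwann list lies at -1.04 for the first block and 0.16 for the third.

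Most lists of inflammation genes held no member past the threshold for age in mdx FDB, though the macrophage receptor gene Vsig4, described above, rose. None of 26 macrophage markers, 12 antigen presentation genes, 15 complement genes and 13 chemokine and cytokine genes passed the limma threshold in the pooled comparison, and at an unadjusted p below 0.05 only 1 gene of complement did. As 5.88% of all genes tested passed, few calls would fall in lists of 12 to 26 genes at that share. The summed macrophage level was 553, 697 and 1014 RPKM at 5 months, against 542, 681 and 760 RPKM at 2 months, and in wt FDB it was 126 to 192 RPKM at 5 months and 226 to 290 RPKM at 2 months. All mdx libraries thus exceeded all wt libraries, and the ages overlapped in mdx. C1qa, a chain of the complement component made by macrophages, had 48.8, 59.1 and 66.8 RPKM at 5 months, against 51, 58.9 and 67.1 RPKM at 2 months (difference 0.02 ± 0.31, adjusted p = 0.981). Interferon response genes, which cells turn on when they sense viruses or interferon, lay lower at 5 months. Their summed level was 19.9, 28.1 and 32.3 RPKM at 5 months, against 40.7, 40.8 and 43.0 RPKM at 2 months, without overlap, and in wt FDB it was 15.5 to 17.3 RPKM at 5 months and 21.4 to 29.6 RPKM at 2 months. All 13 tested members had a negative difference (median -0.41, against -0.02 over all genes), and in 11 every 5-month library was below every 2-month library, against 6.91% of all genes tested. None passed the limma threshold in the pooled comparison (5 lower at an unadjusted p below 0.05). In the first block 2 fell and in the third none, against 17.2% and 5.37% of all genes tested. In a model of the FDB libraries only, 10 fell, and 665 of all genes tested fell there. T cell, NK cell, B cell and plasma cell markers were too low to test.

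None of 17 tested genes of new fibres and myoblast fusion passed the limma threshold with the pooled libraries, or an unadjusted p of 0.05. In the third block 4 fell against 2 months, in the first block none did, and 5 were lower in the third block than in the first. Over all genes tested 5.88% passed with the pooled libraries, 5.37% fell in the third block and 17.2% in the first. In the third block 6.99% were lower than in the first. Tmem8c, the fusion protein myomaker, had 3.89, 4.91, 5.11 and 6.07 RPKM in the third block and 12, 17.9 and 24 RPKM in the first block at 5 months, against 9, 15.2 and 19 RPKM at 2 months. It fell in the third block (-1.32 ± 0.40, adjusted p = 0.0236) and gave 0.30 ± 0.43 in the first (adjusted p = 0.649), while the wt libraries were at 0.158 to 0.773 RPKM. Myog, the gene of the differentiation factor myogenin, had 8.83, 9.6, 11.4 and 11.6 RPKM in the third block and 16.1, 24.6 and 31.6 RPKM in the first block at 5 months, against 15.5, 18.8 and 24.9 RPKM at 2 months. Libraries of the third block lay below all others, and the fall missed the threshold (-0.85, adjusted p = 0.114). Myh3, embryonic myosin heavy chain, had 31.2, 39.4 and 75.6 RPKM at 5 months, against 31.2, 45.9 and 48.6 RPKM at 2 months, and the ages overlapped (0.08, adjusted p = 0.961). Pax7, which marks satellite cells, the stem cells of muscle, had 0.831, 1.04 and 1.35 RPKM at 5 months, against 0.93, 1.11 and 1.38 RPKM at 2 months (-0.05, adjusted p = 0.884).

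In wild-type FDB more genes passed the threshold over the same interval, 4213 (33.6%), with 794 higher (6.33%) and 3419 lower (27.3%) at 5 months. All wt FDB libraries belong to the first block, in which mdx gave 2888 genes (23.0%), 736 higher (5.87%) and 2152 lower (17.2%). The wt count rests on 4 against 4 libraries, and the pooled mdx count on 7 against 3 over 2 blocks. The first-block mdx count rests on 3 against 3 in the model split by block. These counts therefore do not measure how large the change was in each genotype. Other scalings, which changed the split into rises and falls in mdx, were not tried for the wt comparison. In wt 24 of the 30 matrix genes fell, with a median of -0.99, and 11 of the 15 growth genes fell, with a median of -0.65. So did 10 of 12 antigen presentation genes and 14 of 15 Schwann markers (14 of 15 fell in the first block of mdx as well). The 7 of 26 macrophage markers that fell in wt are a share near that of all genes. The difference between the genotypes was tested as the change with age in mdx less that in wt, and 168 genes (1.34%) passed, 124 positive (0.989%) and 44 negative (0.351%). None of the antigen presentation genes, macrophage markers and Schwann markers was among them by the limma test (7, 4 and 7 positive at an unadjusted p below 0.05). With median-of-ratios scaling 84 were positive and 107 negative, and with quantile normalization 91 and 159. Without library ns04 28 genes passed, and without ns06 793. With the first block alone 268 (2.14%) passed, 134 (1.07%) in each direction, and with the third block alone 2539 (20.2%) passed, 2169 positive (17.3%) and 370 negative (2.95%). Of the 30 matrix genes only Sparc passed, with a value of 0.76 ± 0.19 (adjusted p = 0.0339): it fell in both genotypes and less in mdx (-1.18) than in wt (-1.94). With the first block alone its adjusted p was 0.0561, and it missed the threshold without any 1 of 9 libraries (up to 0.159). Col1a1 gave 0.86 ± 0.41 (adjusted p = 0.252), so a difference between genotypes was not detectable for collagen I. The genotype by age value was positive in 29 of the 30 matrix genes, with a median of 0.47 against 0.07 over all genes tested. In 11 of the 30 the value was positive at an unadjusted limma p below 0.05, which 2263 of all 12541 genes reached in either direction.

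Among the genes past the threshold, Igf1, a growth factor that macrophages and fibres release in regenerating muscle, had 11.6, 13.9 and 14.3 RPKM at 5 months, against 14.6, 15.3 and 15.6 RPKM at 2 months in mdx. In wt it had 5.29 to 6.84 RPKM at 5 months and 12.6 to 14.9 RPKM at 2 months. The change of Igf1 was not detectable in mdx (-0.16, adjusted p = 0.57), while it fell in wt (-1.05, adjusted p = 1.47e-07), with a genotype by age value of 0.89 ± 0.19 (adjusted p = 0.0109, and 0.019 with the first block alone). Cfb, complement factor B, had 15.8, 17.7 and 20.1 RPKM at 5 months, against 12.2, 13.1 and 19 RPKM at 2 months in mdx, and 3.43 to 5.26 RPKM at 5 months and 7.99 to 9.11 RPKM at 2 months in wt (1.06, adjusted p = 0.0322, first block 0.0285). Kcne4, a potassium channel subunit, rose in mdx (0.50) and fell in wt (-0.45), for a value of 0.95 (adjusted p = 0.0104, first block 0.024). Igfbp5, a binding protein of insulin-like growth factors, gave 0.98 (adjusted p = 0.0461), Coch, a secreted matrix protein, 1.61 (adjusted p = 0.0265), Cldn5, a tight junction protein of endothelium, 1.30 (adjusted p = 0.0466), and Rpph1 1.86 (adjusted p = 0.0209). Of these, Igfbp5, Coch and Cldn5 did not pass with the first block alone (adjusted p = 0.118, 0.147 and 0.303). With single libraries left out, the highest adjusted p was 0.146 for Cfb, 0.0539 for Kcne4 (without ns04), 0.124 for Igfbp5, 0.0981 for Coch, 0.175 for Cldn5 and 0.0732 for Rpph1. The genotype by age value of Igf1 was not examined with single libraries left out.

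In the negative direction, Clca4a gave -1.54 ± 0.11 (adjusted p = 8.8e-14). It was at 0.882 to 1.54 RPKM at 5 months and 0.156 to 0.374 RPKM at 2 months in mdx, and at 3.44 to 6.68 RPKM at 5 months and 0.0604 to 0.293 RPKM at 2 months in wt, so it rose in both genotypes and more in wt. Ggta1, which makes the alpha-galactose epitope on glycoproteins, had 5.69, 6.89 and 8.64 RPKM at 5 months, against 8.23, 13.1 and 13.6 RPKM at 2 months in mdx, while wt had 14.2 to 22.2 RPKM at 5 months and 8.64 to 13.1 RPKM at 2 months. It fell in mdx (-0.68) and rose in wt (0.54), with a genotype by age value of -1.22 ± 0.17 (adjusted p = 3.21e-05). Nrn1l, a relative of neuritin, likewise fell in mdx (-0.40) and rose in wt (0.47), for a value of -0.87 (adjusted p = 0.000593, or 0.206 with a pseudocount of 0.1 RPKM). Mn1, a transcriptional regulator, fell in mdx (-0.74) and gave 0.27 in wt (adjusted p = 0.296 for wt, 0.0461 for the difference). The difference missed the threshold without any 1 of 13 libraries (up to 0.143).

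**Figure D5:**
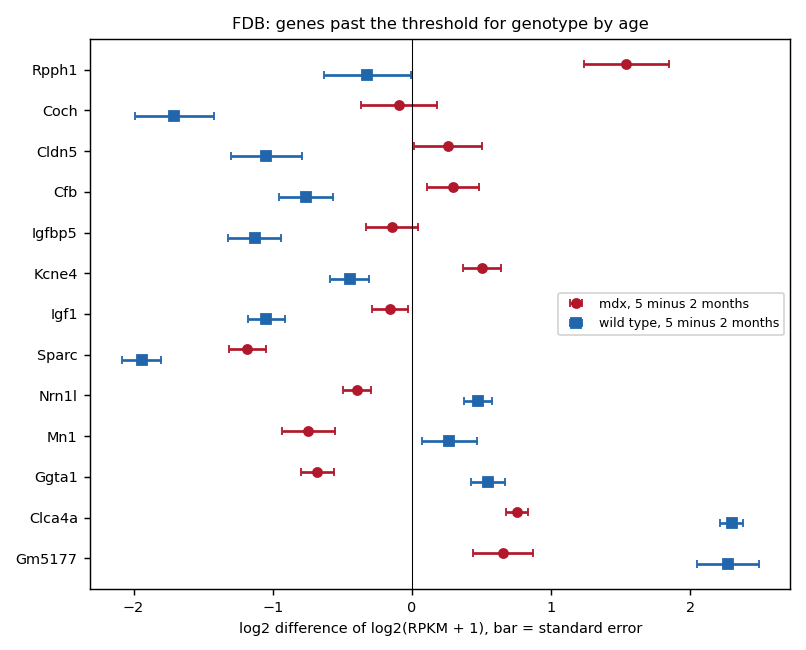
Difference between 5 and 2 months on the log2(RPKM + 1) scale in mdx (circles) and wt (squares) FDB, with bars of 1 standard error, for 13 genes past the threshold for genotype by age. Igf1, Cfb and Kcne4 lie below 0 in wt and near or above 0 in mdx, and Ggta1 and Nrn1l fall in mdx and rise in wt.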

How the data were processed

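RNA was measured by sequencing of 55 libraries of 3 muscles. Per the labels' protocols, muscle was kept in a preservative, RNA was extracted with Trizol and PureLink columns with DNase, poly(A) RNA was isolated with NEBNext beads, and libraries were made on a Mondrian SP instrument. The authors deposited an RPKM table of 24453 genes, computed in Partek from TopHat alignments to mm10 per the file headers. Versions in the submitters' processing notes are Partek 6.6, TopHat2 2.1.0 and CASAVA 1.8.2. For annotation, strand setting and multiply mapped reads, details were not given in the sources used here, which leaves genes with close copies or overlaps uncertain. An ANOVA table by the authors was not used.

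The 12541 genes averaging 0.5 RPKM or more were analysed on the log2(RPKM + 1) scale, on which changes of low genes are understated. A limma 3.58.1 model (R 4.3.3, lmFit, eBayes with trend) held the means of all 12 groups, so FDB groups share the spread of the other muscles. A second model of the same kind split the 5-month mdx FDB libraries by ID block. P-values were adjusted within each contrast by the Benjamini-Hochberg method with a threshold of 0.05. The model was tested on simulated data. Depth was read from steps of the RPKM values. In mdx FDB 74.2% to 79.4% of low values came within 0.1 of a whole read, too few for a test on counts. No libraries were identical. The depth per library limits genes of low level. The filter takes the mean over all 55 libraries of the series, so genes near 0 in an FDB group can remain.

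Named genes are Dmd, Utrn and myosin heavy chains, and the 12 largest rises and falls past the threshold, without overlap and with at least 1 RPKM. They also include the 6 largest per sign within the first block and of genotype by age, the 4 largest per sign between blocks, and up to 5 members past the threshold and defining genes of each list described. Most RIKEN, Gm and microRNA names, and some defining genes of lists given only as counts, are left unnamed, and Bgn, Col4a1, Col4a2, Igf1r and Mmp14 were added after their values were seen. The rule also takes 3 genes that are not reported here. Members and lists were chosen with earlier results of these data known. Alternatives were other pseudocounts, filters, scalings, libraries and blocks. Sequences are from RefSeq (GRCm38.p6) and gene coordinates from GENCODE M21 (mm10).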

Additional observations from a re-analysis of the deposited data

Results flagged for a closer look

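A library far from the other 6 of its group (Dixon's test at the 95% level, in 146 values examined) was found for 15 values among the mdx FDB libraries at 5 months, and chance alone flags about 1 in 20 groups. Library ns06 stood apart in 7 of them. It was high in Bnip3 (127 RPKM, others 111 to 116), Eda2r (26.2, others 11.6 to 16.3) and Myot (540, others 357 to 419). It was low in Chrne, the adult acetylcholine receptor subunit (23.2, others 28.3 to 32.1), Fbxo32, the ubiquitin ligase atrogin-1 (18.8, others 31.7 to 38), Igfbp5 (97.4, others 170 to 195) and the summed interferon response genes (19.9, others 27.4 to 32.3). Library ns05 was high in Ggta1 (8.64, others 5.69 to 6.96), Pdgfra, a receptor of fibroadipogenic progenitors (22.4, others 18.6 to 19.5), and the summed cell cycle genes (92.4, others 66.3 to 77.1) and macrophage markers (1014, others 553 to 731). It was low in Nrap (433, others 538 to 616). Library ns57 held the keratins of basal skin cells, Krt14 (16.1, others at most 0.0294) and Krt5 (17.1, others at most 0.0231), and a summed keratinocyte level of 531 (others 4 to 7.37).

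The change with age differed between mdx and wt FDB by a direct limma test for 13 named genes. Positive differences of the log2 changes were found for Cfb (1.06), Cldn5 (1.30), Coch (1.61), Igf1 (0.89), Igfbp5 (0.98), Kcne4 (0.95), Rpph1 (1.86) and Sparc (0.76). Negative ones were found for Clca4a (-1.54), Ggta1 (-1.22), Gm5177 (-1.61), Mn1 (-1.01) and Nrn1l (-0.87).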

How the results depend on the processing

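The count of 738 genes between 5 and 2 months became 1111 without the filter on low values, 2888 in the first block, 1571 in the third and 1565 with blocks weighted equally, and it ranged from 304 to 782 with each mdx library left out. The genotype by age count of 168 became 458 with FDB libraries only, 268 with the first block, 2539 with the third and 881 with equal blocks, and it ranged from 28 to 793 with each library left out. The first-block count of 2888 ranged from 1586 (without ns06) to 3171, and the count of 3720 between blocks from 1965 (without ns06) to 4201. Higher genes made up 41.2% of the 738, 60.4% with median-of-ratios scaling and 54.6% with quantile normalization. Of 56 named genes past the threshold for age, 31 passed with every single library left out, and 29 in every setting tried. The cause of these changes was not tested.

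Directions turned only for genes that did not pass with the pooled libraries. In the first block Bgn gave -0.03 (-0.00 with equal blocks), C1qa -0.04, C3 -0.08, Fn1 -0.07, H19 0.05, Myog 0.25 and Tmem8c 0.30. In the third block Acta2 gave 0.77, Mbp 0.20, Myh1 -0.11, Myh11 1.11, Myh3 -0.24, Pecam1 0.33 and Utrn 0.20. Of these, Acta2, Myh11, Pecam1 and Utrn rose past the limma threshold there (adjusted p = 0.0269, 0.000241, 0.00252 and 0.0303). Each of them fell past it in the first block. Acta2 gave 0.03 with median-of-ratios scaling and Pax7 0.01 with quantile normalization. With libraries left out, ranges were -0.24 to 0.21 for Acta2, -0.05 to 0.06 for Bgn, -0.08 to 0.12 for C1qa, -0.01 to 0.40 for C3, -0.02 to 0.10 for Fn1, -0.44 to 0.21 for Myh11, -0.12 to 0.19 for Myh3, -0.12 to 0.03 for Pax7 and -0.17 to 0.01 for Pecam1.

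No paired analysis was possible because the deposited columns carry library IDs and not the labels' replicate numbers. Alternatives for the within-block comparisons, and leaving out wt libraries, were chosen after seeing the data.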
